A study of Mus musculus with 2 samples.

Results

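The regions described here are the 1 Mb bins of the 19 mouse autosomes (chromosomes 1 to 19, build mm8) from 3 Mb on, with the GPS2 windows listed by the authors taken out. Binding that the lists do not hold, or that reaches past the margin given next, was not removed. Reads were counted by their 5′ end outside every window of the authors' 2 deposited window lists and a margin of 1 kb on each side, and divided by the base pairs of the bin left free. Of 2415 such bins, 2405 had at least 500 kb free and were kept, out of 2642 bins of 1 Mb over all chromosomes. The last kept bin by this limit, at the end of chromosome 6, had 513 kb free, and the first one left out, at the end of chromosome 12, had 462 kb. The other 9 bins left out had less. Each library was scaled to its median bin, so that a density of 1 is that of the median bin at that day.

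GPS2 is a subunit of the NCoR and SMRT corepressor complexes. Its binding was measured by sequencing of immunoprecipitated chromatin (ChIP-seq) from 3T3-L1, a clonal mouse preadipocyte line that forms adipocytes after hormonal induction. The groups were 3T3-L1 cells at day 0 and at day 6 of induced adipogenesis, with 1 library each, no altered allele named in the labels, and rabbit antibodies against peptides from either end of GPS2, the antibody of each library not being named. No input library was used here. With 1 library per day there is no test and no replicate error: differences between days are differences between these 2 libraries, and intervals carry no error but that of counting. There were 4258133 reads at day 0 and 3543507 at day 6, of which 85.6% and 81.8% fell in the free part of the kept bins.

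As background, a ChIP library holds many fragments that were not selected by the antibody, and outside bound sites their density follows how much DNA of a region the cells hold, how much of its sequence can be aligned and how readily its chromatin is fragmented. Such reads can therefore report copy number in cell lines, and lines of the 3T3 family are known to carry abnormal chromosome numbers. Gene-rich, open stretches of mammalian chromosomes alternate with gene-poor, compact ones over megabases, and binding sites of transcriptional cofactors gather in the former. The reads do not measure expression, so the label of the cell line was not checked against marker genes. The share of alignable sequence and the base composition of the bins were not measured, because no mm8 sequence was used here.

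In the kept bins the median density was 1515 reads per free Mb at day 0 and 1175 at day 6, and the median bin had 979 kb free. Counting error on a median bin is 2.60% at day 0 and 2.95% at day 6. The kept bins include 3 with no read in either library: chromosome 1 (86000001 to 87000000) and chromosome 8 (21000001 to 22000000 and 57000001 to 58000000). None of the 3 holds a window. Each lies inside a longer stretch without reads, of 1990 kb from 85230001 on chromosome 1, of 1990 kb from 20460001 and of 1690 kb from 56630001 on chromosome 8. Further stretches of at least 500 kb without a read were 890 kb from 25430001 on chromosome 5, 700 kb from 38280001 on chromosome 7 and 640 kb from 92480001 on chromosome 13. A stretch with no reads at both days cannot be told apart here from one without alignable sequence. The other 2402 bins were measured.

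The background landscape was nearly the same at both days, and it was steeper at day 6. Across the 2402 bins Pearson's r between the log2 densities of the 2 days was 0.964 and Spearman's rho was 0.961. This is a description across bins, which share sequence, cell line and the removed windows. The middle 90% of bins lay between densities of 0.677 and 1.47 at day 0, and between 0.633 and 1.68 at day 6. The interquartile range of log2 density was 0.48 at day 0 and 0.63 at day 6, which is 1.31 times as wide. Both spreads are far above the counting error of a bin, 0.0375 and 0.0426 on the log2 scale. After the median of each chromosome was subtracted, the ranges were 0.43 and 0.58, so most of the spread lay within chromosomes.

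**Figure D1:**
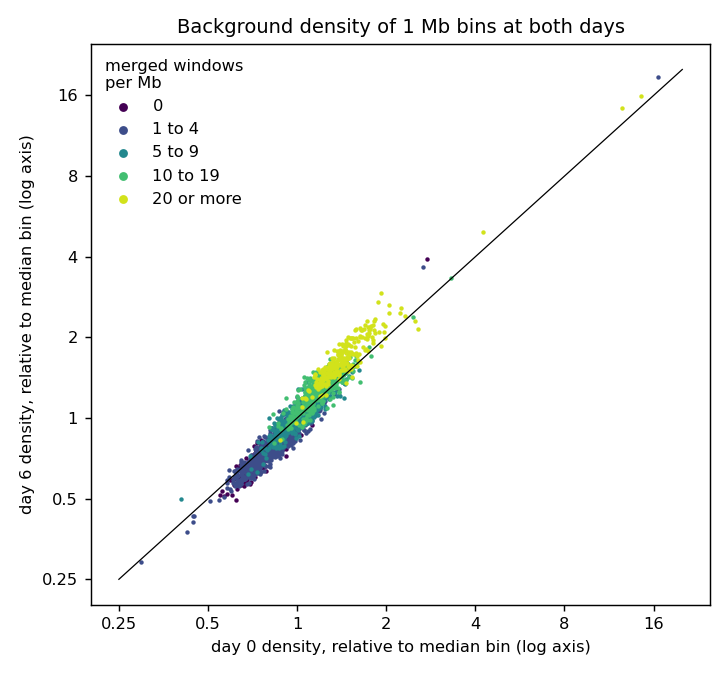
Background density of each measured 1 Mb bin at day 0 (x axis) and day 6 (y axis), both relative to the median bin on log axes, coloured by the number of merged windows per Mb, with the line of equal density. Bins with 20 or more windows per Mb lie above the line in 95.4% of cases, and bins without windows in 16.2%.

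Neighbouring bins had similar densities, and the likeness faded within a few Mb. With chromosome medians subtracted, bins 1 Mb apart had a Spearman correlation of 0.607 at day 0 and 0.624 at day 6. At 2 Mb it was 0.352 and 0.376, at 5 Mb 0.0631 and 0.0964, and at 20 Mb 0.0353 and 0.0453. Likeness within chromosomes was thus mostly on a scale of 1 to 2 bins. Differences between whole chromosomes had been subtracted and could not show here.

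In the bins of highest density, reads gathered in a few stretches to differing degrees. The first bin of chromosome 9 (3000001 to 4000000) stood at 16.6 at day 0 and 18.8 at day 6, with 24873 and 21886 reads. Its first 10 kb held 25.1% and 25.4% of them, while the median 10 kb stretch of the same bin held 13 and 10 reads. Without its first 10 kb the bin still stood at 12.5 and 14.2. The next 2 were neighbours on chromosome 10, from 116000001 to 118000000. They stood at 14.5 and 12.6 at day 0 and at 15.9 and 14.4 at day 6. Their densest 10 kb held 6.09% and 9.17% of their reads at day 0, and without it they still stood at 13.8 and 11.6. Their median 10 kb stretches held 22.5 and 38 reads at day 0, against 905 and 1214 in the densest. Reads were thus unevenly spread in these 2 bins too. The search for steps below used segments of at least 5 bins, so these 2 bins alone could not form a segment in it.

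The fourth, on chromosome 8 (126000001 to 127000000), stood at 4.23 and 4.94, and its densest stretch of 10 kb held 11.2% of its reads at day 0. The fifth, on chromosome 10 (106000001 to 107000000), stood at 3.32 and 3.33, and its densest stretch held 17.7%. All 5 stood apart from the middle 90% of bins at both days, and none of them was 1.2 times higher or lower at day 6. Their ratios of day 6 to day 0 ranged from 1.00 on chromosome 10 (106000001) to 1.17 on chromosome 8.

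The sparsest measured bins bordered or held stretches without reads. The lowest, on chromosome 7 (38000001 to 39000000), stood at 0.296 and 0.290, and 70 of its 10 kb stretches had no read. Those on chromosome 5 (25000001 to 26000000) and chromosome 8 (22000001 to 23000000) stood at 0.405 and 0.424 at day 0, with 57 and 49 such stretches. Bins on chromosome 4 (121000001 to 122000000) and chromosome 12 (42000001 to 43000000) both stood at 0.446, with 11 and 37. Of the 5, the bin on chromosome 5 was the only one past a 1.2-fold difference between days, at 1.23 (95% interval 1.1 to 1.39).

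Whole chromosomes stood at different levels, and their order was much the same at both days. Chromosome 8 had the highest median density at day 0, 1.33 (quartiles 1.08 and 1.5, 127 bins), and stood at 1.28 at day 6. Chromosome 15 stood at 1.23 (quartiles 1.06 and 1.44, 100 bins) and 1.28. Chromosome 12 had the lowest median, 0.791 (quartiles 0.673 and 0.914, 117 bins) and 0.774. The quartile ranges of chromosomes 8 and 15 lay above 1 at both days, and that of chromosome 12 was the only one below 1 at both days.

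Between these lay chromosome 6 with medians of 1.14 and 1.07 at day 0 and day 6, chromosome 11 with 1.13 and 1.22, chromosome 3 with 1.13 and 1.12, and chromosome 17 with 1.13 and 1.14. Chromosomes 19 (1.08 and 1.07), 2 (1.07 and 1.06), 13 (1.01 and 1.01), 5 (0.996 and 1.00), 18 (0.980 and 1.05), 16 (0.959 and 0.946), 10 (0.957 and 0.939) and 9 (0.951 and 0.960) stood within 10% of 1 at both days. Chromosomes 7 (0.921 and 0.926) and 14 (0.920 and 0.962) did too, chromosome 1 (0.923 and 0.887) at day 0 only, and chromosome 4 (0.857 and 0.888) at neither. In the order of day 0 levels, the quartile ranges of all 18 pairs of neighbours overlapped. Sorting by level makes such overlap likely, and it does not measure whether 2 medians differ. The highest level was 1.68 times the lowest at day 0 and 1.66 times at day 6.

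The levels moved with the number of GPS2 windows. Across the 19 chromosomes the day 0 level and the median number of windows per Mb (windows of both lists joined where they overlapped, called merged windows) had a Spearman correlation of 0.755, a description with no test. The chromosomes were therefore compared again over the 886 bins with 1 to 4 merged windows per Mb, each relative to the median of these bins. In them chromosome 15 stood at 1.25 at day 0 and 1.26 at day 6 (35 bins), chromosome 8 at 1.14 and 1.1 (39 bins), and chromosome 3 at 1.12 and 1.11 (52 bins). Chromosome 12 stood at 0.841 and 0.864 (58 bins) and chromosome 4 at 0.891 and 0.882 (64 bins).

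Chromosome 15 was thus the highest at both days in bins of like window density, whereas over all bins chromosome 8 led at day 0 and both stood at 1.28 at day 6. The highest level was then 1.48 times the lowest at day 0 and 1.46 times at day 6. The quartile ranges of chromosomes 3, 8 and 15 lay above 1 at both days, and that of chromosome 12 below 1. Chromosome number and alignable share of sequence cannot be told apart as sources of such a level from these reads. Leaving out 10 kb stretches without a read moved no chromosome level by more than 2.47%.

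**Figure D2:**
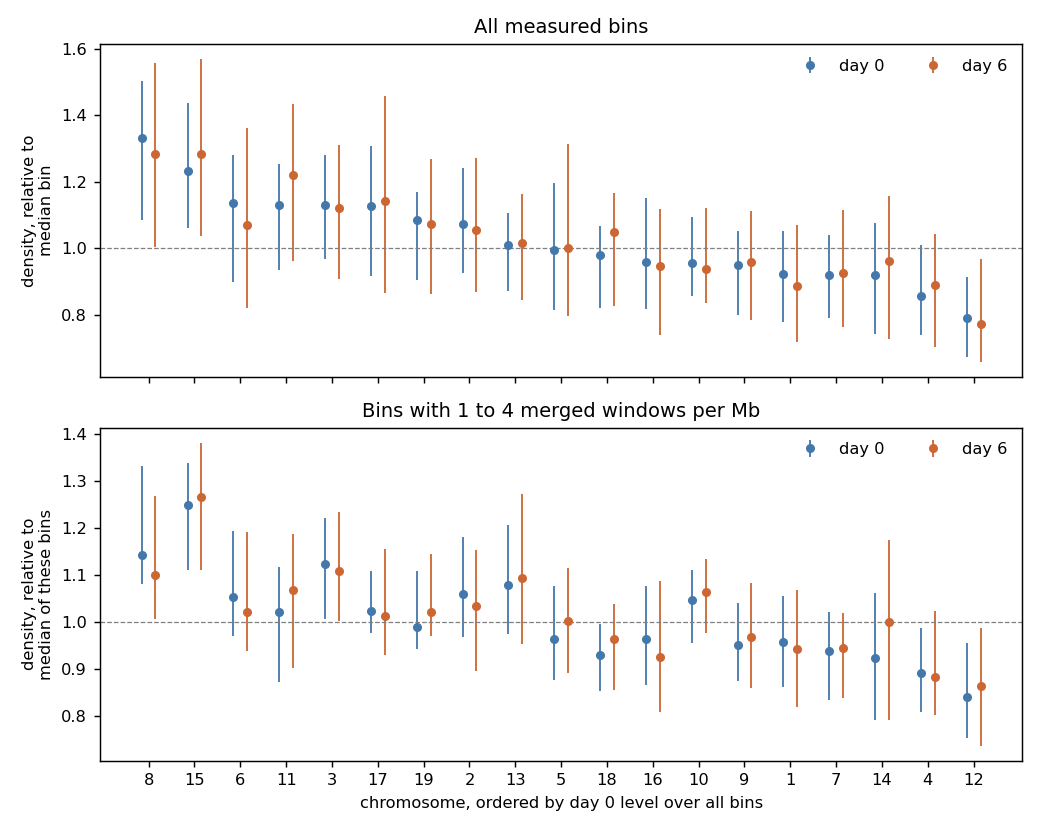
Median background density of each autosome at day 0 and day 6 with bars from the first to the third quartile over its bins, for all measured bins (top, relative to the median bin) and for bins with 1 to 4 merged windows per Mb (bottom, relative to the median of these bins). Chromosome 8 leads at day 0 in the top panel with 1.33, chromosome 15 in the bottom panel with 1.25, and chromosome 12 is lowest in both.

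Steps within chromosomes were sought next, since a gained or lost part of a chromosome gives an abrupt change of level that both days share. Each day was divided on its own into segments of at least 5 bins, and a boundary counted as a step where the segment medians differed by at least 0.25 on the log2 scale. A step was called shared where both days had one in the same direction within 2 measured bins. Day 0 had 24 steps and day 6 had 28, and 18 were shared. That is 0.755% of the 2383 boundaries between neighbouring bins. Of the 18, some rest on how the 3 bins without reads are treated: given 0.5 reads each, a treatment tried first, they raised the noise scale of day 0 from 0.149 to 0.168, and 10 shared steps were found, 9 of them among the 18. Leaving them out was chosen after that count was seen. The 18 lay on 9 chromosomes, 11 of them rises and 7 falls (towards higher positions), and 15 fell on the same bin boundary at both days.

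On chromosome 1 the density rose after 84000000 at day 0 (after 87000000 at day 6), fell after 96000000 and rose again after 119000000. The first of these lies 3 Mb apart at the 2 days and was matched because the unread bin between is not counted. The segments on the way stood at 0.9, 1.22, 0.719 and 0.963 at day 0, and at 0.857, 1.33, 0.636 and 0.95 at day 6. The fall after 96000000 was the largest step at both days, -0.77 and -1.06 on the log2 scale. Merged windows fell there from a median of 11 to 1 per Mb. The segment before it holds the unread stretch of 1990 kb, and 10.7% of its window-free 10 kb stretches had no read.

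On chromosome 6, 4 steps followed each other, after 60000000, 82000000, 101000000 (102000000 at day 6) and 112000000. The 5 segments stood at 1.11, 0.853, 1.37, 0.813 and 1.24 at day 0. At day 6 they stood at 1.05, 0.807, 1.43, 0.754 and 1.24. Their median numbers of merged windows were 5, 1, 14, 1 and 10 per Mb. The density of these segments went up and down in the same order as the windows. Only the step after 82000000 was found with 0.5 reads in the unread bins.

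Chromosome 2 had a dense segment of 11 bins, from 25000001 to 36000000, at 1.37 at day 0 and 1.67 at day 6, with 30 windows per Mb against 4.5 and 4 beside it. Farther along there was a rise after 151000000, from 1.06 to 1.34 at day 0. On chromosome 14 the 36 bins from 79000001 to 115000000 were sparse, at 0.676 at day 0 and 0.646 at day 6, between segments of 1.03 and 0.887 at day 0. They held 1 window per Mb, and the segments beside them 6.

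On chromosome 15 a segment of 10 bins at 1.5, up to 13000000, was followed by 18 bins at 0.959 and, after 31000000, by 65 bins at 1.25 at day 0. Windows went from 11.5 to 1 and to 7 per Mb. The last 6 bins of chromosome 17, after 89000000, fell to 0.754 at day 0 from 1.16 before them, and windows fell from 8 to 0.5 per Mb. The remaining steps were rises on chromosome 9 after 30000000, chromosome 11 after 50000000 and chromosome 12 after 70000000, of 0.29, 0.32 and 0.28 on the log2 scale at day 0. Windows rose there from 2 to 6, from 5 to 16.1 and from 2 to 5 per Mb.

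**Figure D3:**
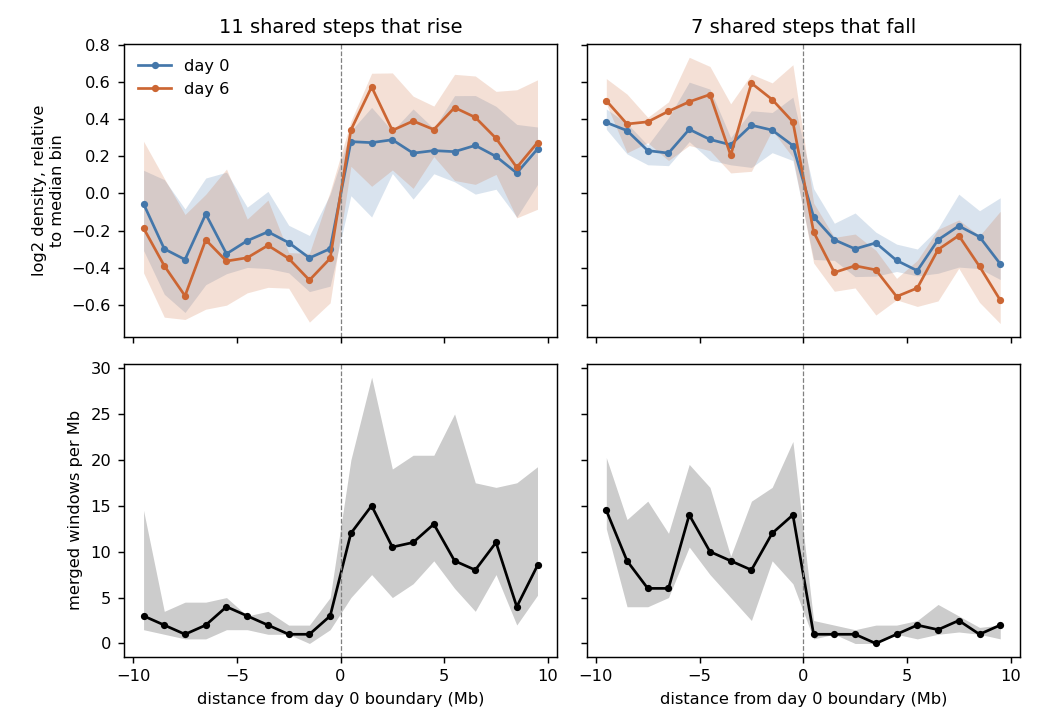
Median log2 background density at day 0 and day 6 (top) and median merged windows per Mb (bottom) against the distance in Mb from the day 0 boundary, for the 11 shared steps that rise and the 7 that fall, with shading from the first to the third quartile over steps. Density and windows change together at the boundary, and the day 6 line lies farther from 0 than the day 0 line on both sides of it at most distances.

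At all 18 shared steps the median number of windows per Mb changed in the same direction as the background density, although reads in and near the windows were not counted. A straight line was fitted to the log2 density of all bins against log2 of merged windows per Mb plus 1, and the steps were measured again between the same segments on what was left. In the median, 14.0% of a day 0 step was left, counting a reversed step as negative. Some day 0 steps were reversed. On chromosome 2 the fall after 36000000 became 0.12 and the rise after 151000000 became -0.03. The rises after 30000000 on chromosome 9 and after 31000000 on chromosome 15 became -0.06 and -0.003. Only the fall after 96000000 on chromosome 1 kept at least 0.25 at both days, with -0.28 at day 0 and -0.39 at day 6. The steps of chromosome 6 shrank to between -0.08 and 0.07 at day 0.

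When the values left by the line were divided into segments anew, no shared step was found. Among the bins with 1 to 4 windows per Mb alone, 1 shared step was found, and it was the fall after 79000000 on chromosome 14. None of the 18 steps was found under every one of the 12 alternatives tried, since these include the window line, which left none. The fall after 79000000 on chromosome 14 was found in the other 11. The windows were called on these same reads and can become more numerous where more DNA is present, so the line may also take out part of a true change of copy number. A change of copy number and a change of chromatin or sequence that moves with the windows cannot be told apart at these steps. Whether the working name of these regions, copy segments, holds for the steps within chromosomes was therefore not tested.

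**Figure D4:**
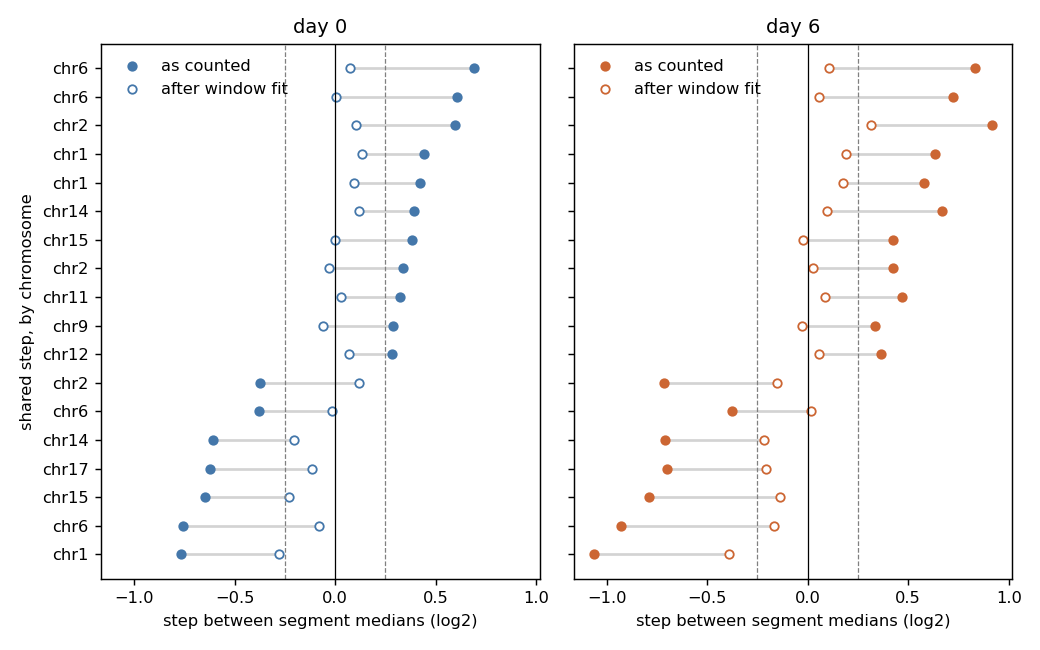
Size of each of the 18 shared steps on the log2 scale at day 0 (left) and day 6 (right), as counted (filled) and after subtracting the linear fit on window density (open), with dashed lines at -0.25 and 0.25. Most open points lie closer to 0, and only the lowest one, on chromosome 1, is past -0.25 at both days, while 1 rise on chromosome 2 passes 0.25 at day 6 only.

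All 18 shared steps were larger at day 6 than at day 0, although that after 60000000 on chromosome 6 was -0.38 at both when rounded. The median size was 0.43 at day 0 and 0.68 at day 6 on the log2 scale. Across the fall after 96000000 on chromosome 1 the ratio of day 6 to day 0 went from 1.08 to 0.884, and across the rise after 25000000 on chromosome 2 from 0.974 to 1.21. The steps, shared in place, were thus not equal in height at the 2 days.

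The ratio of day 6 to day 0 was taken for each bin to find where the background of the 2 libraries differed. A bin was called higher where the ratio reached 1.2, and lower where it was 0.833 or less. Of the 2402 bins, 128 were higher (5.33%) and 21 were lower (0.874%). The 95% counting interval excluded 1 for all 149. This follows largely from picking them by size, since a typical interval runs from 0.925 to 1.08 times its ratio, and it is no separate support. The bins on either side of the limit were 1 on chromosome 14 (21000001 to 22000000) with 1.201 and 1 on chromosome 19 (46000001 to 47000000) with 1.1999. Scaling to the total of counted reads instead of the median bin gave 93 higher and 59 lower bins, so that 61.2% of calls were higher in place of 85.9%.

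Higher bins lay where windows were dense, and lower bins where they were sparse. Of the 128 higher bins 91.4% had 10 or more merged windows per Mb, against 29.3% of all bins, and their median was 27.5 windows per Mb against 5. Of the 21 lower bins, 20 (95.2%) had fewer than 5 windows per Mb, against 45.4% of all bins, and the highest value was 8. By chromosome, higher bins made up 13.4% of chromosome 11, 12.8% of chromosome 5 and 10.9% of chromosome 17, and there were none on chromosomes 6, 13 and 16. Chromosome 1 held 7 of the 21 lower bins, which is 3.63% of its 193 bins, against 0.874% over all bins.

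The ratio climbed in each class of window density. It had a median of 0.941 in the 204 bins without a window (quartiles 0.905 and 0.984), and of 0.949 in the 886 bins with 1 to 4 windows per Mb (0.907 and 0.993). In the 608 bins with 5 to 9 it was 1.01 (0.964 and 1.06), and in the 441 bins with 10 to 19 it was 1.06 (1.01 and 1.13). In the 263 bins with 20 or more it reached 1.16 (1.1 and 1.22). The quartile ranges of the sparsest and the densest class did not overlap.

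The share of higher bins, 5.33% over all classes, was 0.490% in the class without windows, 0.339% with 1 to 4 windows per Mb, 1.15% with 5 to 9, 7.48% with 10 to 19 windows per Mb and 31.9% with 20 or more. The 0.490% is 1 bin, on chromosome 17 from 39000001, whose call rests on a single stretch of 10 kb. Across all bins the ratio and the number of merged windows per Mb had a Spearman correlation of 0.650. It was 0.653 with windows listed only at day 6 and 0.532 with windows of the day 0 list. These are descriptions: both quantities come from the same 2 libraries, neighbouring bins are alike, and each list was called on its own library.

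The relation was present on every autosome. Bins with 10 or more windows per Mb had a higher median ratio than bins with fewer than 5 on all 19 chromosomes, by 0.0678 on chromosome 13 to 0.216 on chromosome 4. The Spearman correlation within a chromosome ranged from 0.324 on chromosome 13 to 0.802 on chromosome 11. With a margin of 10 kb around the windows in place of 1 kb, the median ratio of the densest class was 1.12 and the correlation 0.576. Without the 10% densest stretches of 10 kb they were 1.09 and 0.554. The number of higher bins fell to 73 and to 50 under these settings.

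**Figure D5:**
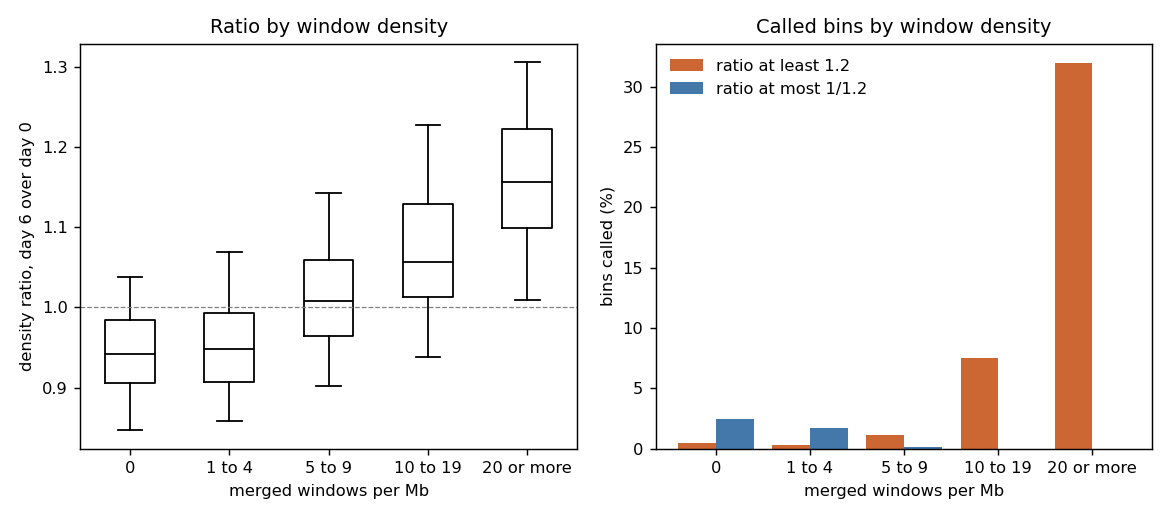
Left, ratio of background density at day 6 over day 0 by the number of merged windows per Mb, as boxes from the first to the third quartile with the median and whiskers at the percentiles 5 and 95. Right, percentage of bins in each class past 1.2 or below 0.833. The median climbs from 0.941 without windows to 1.16 with 20 or more per Mb, and the share of higher bins is 0.490%, 0.339%, 1.15%, 7.48% and 31.9% from the sparsest to the densest class.

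The wider spread at day 6 lay mainly between these classes. Within the classes of 0, 1 to 4, 5 to 9 and 10 to 19 windows per Mb, the interquartile range of log2 density at day 6 was 1.08, 1.15, 1.08 and 1.06 times that at day 0, against 1.31 over all bins. In the class of 20 or more it was 1.3 times. Median densities of the classes ran from 0.765 to 1.4 at day 0 and from 0.726 to 1.60 at day 6.

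Of the 10 bins with the largest ratios, 8 had between 16 and 87 windows per Mb. The largest ratio, 1.52 (95% interval 1.43 to 1.61), was on chromosome 10 from 80000001 to 81000000. Its reads went from 1964 at day 0 to 2315 at day 6 in the smaller library, and its density from 1.93 to 2.93, with 81 windows per Mb. The bin before it (79000001 to 80000000, 87 windows per Mb) went from 1.88 to 2.72, a ratio of 1.45 (1.36 to 1.54). In both bins the gain was spread out: without the densest 10 kb the ratios were 1.52 and 1.45.

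The other 6 had ratios between 1.35 and 1.4. They lay on chromosome 2 (27000001 to 28000000), chromosome 8 (127000001 to 128000000), chromosome 4 (147000001 to 148000000), chromosome 11 (116000001 to 117000000) and chromosome 5 (114000001 to 115000000 and 135000001 to 136000000). Their densest 10 kb held no more than 2.80% of the reads of the bin at either day, and without it the ratios were between 1.34 and 1.39.

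The remaining 2 of the 10 held few windows and were of another kind. The bin on chromosome 17 from 39000001 to 40000000 had no window and went from 2.75 to 3.94, a ratio of 1.43 (1.37 to 1.5). A single stretch of 10 kb, from 39450001 to 39460000, held 2868 of its 4159 reads at day 0 and 3700 of its 4626 reads at day 6. Without that stretch the density of the bin was 0.861 and 0.796, and its ratio 0.924, so the direction turned.

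The bin on chromosome 1 from 24000001 to 25000000 (4 windows per Mb) went from 2.66 to 3.65, a ratio of 1.37 (1.31 to 1.43). The stretch from 24560001 to 24570000 held 61.6% of its reads at day 0 and 69.8% at day 6. Without it the ratio was 1.08. In both bins 1 stretch of 10 kb outside the window lists carried the call.

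The 10 smallest ratios were less extreme and lay in window-poor bins. The smallest was 0.786 (0.720 to 0.856), on chromosome 2 from 111000001 to 112000000, where 1393 and 849 reads gave densities of 0.920 and 0.722. The next was 0.790 (0.712 to 0.878), on chromosome 1 from 68000001 to 69000000, with densities of 0.623 and 0.493. Neither held a window. The others lay on chromosome 1 (151000001 and 168000001), chromosome 6 (43000001 and 110000001), chromosome 2 (53000001), chromosome 7 (52000001 and 60000001) and chromosome 16 (60000001), each position being the start of a bin. Their ratios were between 0.800 and 0.821, with 0 to 4 windows per Mb.

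With 128 higher and 21 lower bins, fewer lower than higher runs could form. Runs of at least 3 adjacent called bins were all of the higher kind. There were 12, on 8 chromosomes, with 43 bins in all, ratios between 1.23 and 1.32 over the run and median window densities of 17 to 50 per Mb. The longest was on chromosome 12 from 108000001 to 114000000, where 6 bins had ratios between 1.21 and 1.28, 1.25 together (1.21 to 1.28). The bin after it had 0.845. On chromosome 5 the 5 bins from 111000001 to 116000000 had 1.28 together (1.24 to 1.32) and the 4 bins from 122000001 to 126000000 had 1.26 (1.22 to 1.3).

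Chromosome 8 held a run of 4 bins from 122000001 to 126000000 with a ratio of 1.25 (1.22 to 1.29), at densities of 1.72 and 2.21. The run with the largest ratio lay on chromosome 11 from 115000001 to 118000000, at 1.32 (1.27 to 1.37), with 50 windows per Mb. The other 7 runs had 3 bins each and lay on chromosome 2 (from 25000001, 30000001 and 165000001), chromosome 4 (from 136000001 and 147000001), chromosome 10 (from 75000001) and chromosome 15 (from 84000001). After the window line was taken from the ratio, the median over a run was between 1.08 and 1.18.

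The same line, fitted to the log2 ratio and chosen after the values were seen, left 22 higher and 10 lower bins. Of these, 18 of the 128 higher and 4 of the 21 lower bins had been called without it. The bins of chromosome 17 (39000001) and chromosome 1 (24000001) then stood highest, at 1.60 and 1.38. On chromosome 2, 4 adjacent bins from 174000001 to 178000000 stood lowest, between 0.733 and 0.798. Before the line was taken out their ratios were 0.825 to 0.851 and 0.836 together (0.809 to 0.863), from 9603 and 6228 reads. The bins on either side had 1.15 and 1.06. These 4 bins were dense, at 1.32 to 2.57 at day 0, and held 76 merged windows, on average 11 of the day 0 list and 8 listed only at day 6 per Mb. In order of position, 4, 21, 12 and 4 of their window-free 10 kb stretches had no read.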

How the data were processed

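Background reads of 2 ChIP-seq libraries, day 0 and day 6, were counted from the authors' deposited aligned reads, intervals of 36 bases whose deposited score column held 1 constant value. The deposited window lists gave positions only, each window 2000 bp wide. Bowtie, HOMER and build mm8 are named per the submitters' processing notes, with no version or setting. Positions were read as BED intervals and are printed counted from 1.

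Counts, free base pairs and windows (assigned by their centre) were taken per bin with Python 3.11.15, numpy 2.4.6, pandas 2.3.3 and scipy 1.17.1. The end of a chromosome was its last read. Segments minimised absolute deviations of log2 density, with a penalty per new segment of 3 times the noise scale times the natural log of the number of bins. The 3 bins without reads have no log and entered neither steps nor ratios, a choice made after a first count of steps with 0.5 reads in them. Intervals are exact conditional binomial at 95%. Segmentation and calls were also run on simulated bins. Their noise was independent between neighbours, unlike that of the measured bins, so the method was not checked on bins that resemble their neighbours.

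Regions named are every chromosome, every shared step, the 5 densest and 5 sparsest bins at day 0, the 10 largest and 10 smallest ratios, and runs of at least 3 called bins. The members, classes and lists were chosen with earlier results of these data known. No gene names are given, since no mm8 annotation was used.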

Additional observations from a re-analysis of the deposited data

Results flagged for a closer look

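Reads outside the bins of the report were above the 3 that a count of 0 allows in 4 places. Chromosome X held 173191 reads at day 0 and 129865 at day 6, which is 4.07% and 3.66% of the libraries. Chromosome Y held 1486 and 1166 reads, 0.0349% and 0.0329%. The mitochondrial genome held 10602 and 12566 reads, 0.249% and 0.355%. The autosomal bins with under 500 kb free held 3611 and 2891 reads, 0.0848% and 0.0816%. No read lay below 3 Mb on any autosome in either library.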

How the results depend on the processing

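Shared steps depended on the settings, by construction for bin size, penalty and step size. Against 18, there were 66 in 500 kb bins, 5 in 2 Mb bins, 46 with a penalty of 2, 2 with a penalty of 5, 10 with a step of at least 0.4, 0 after the window line and, added after seeing the data, 1 in bins with 1 to 4 windows per Mb and 10 with 0.5 reads in the 3 unread bins, whose jumps widen the noise scale. Against 128 higher and 21 lower bins, a ratio of 1.1 gave 454 and 334, a ratio of 1.3 gave 22 and 0, 500 kb bins gave 365 and 116, and 2 Mb bins 51 and 4. Higher bins numbered 73 with a margin of 10 kb and 50 without the densest 10% of 10 kb stretches, and lower bins 59 with scaling to total reads. The window line, added later, left 22 and 10. The causes of these last changes were not tested. The median ratio of the densest window class, 1.16, was 1.14 with a margin of 5 kb, 1.12 with 10 kb, 1.09 without the densest stretches, 1.13 scaled to total reads, 1.15 (30 bins) by day 0 windows alone and 1.15 without bins of density above 2 (added later). In bins without windows, 0.941 became 0.951 without the densest stretches, 0.919 scaled to total reads and 0.951 by day 0 windows alone. With day 0 windows alone the class of 10 to 19 per Mb, at 1.16, stood as high as that of 20 or more. The highest chromosome level over the lowest, 1.68 and 1.66 at day 0 and day 6, was 1.56 and 1.58 with a margin of 10 kb and 1.48 and 1.46 in bins with 1 to 4 windows per Mb (added later). Summing all reads of chromosome 10, which holds 3 of the 5 densest bins, moved its level at day 6 from 0.939 to 1.19. No paired analysis was possible because each day has 1 library. Depth limits single bins: the 95% interval of a ratio of a typical bin runs from 0.925 to 1.08 times its value.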
